A study of Homo sapiens and Mus musculus with 30 samples.

Results

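The first step of LIN28B expression in HEK293A cells, a human embryonic kidney line, was described by ribosome occupancy. Occupancy is each gene's level in polysome RNA relative to its level in total RNA. Each level is scaled to its own library, so occupancy is a relative measure and not a share of the gene's RNA. The comparison took 6 of the 30 libraries of the series, chosen by their titles: 1 library of polysome RNA and 1 library of total RNA at each of 3 levels of LIN28B. At X0, by the series design, LIN28B was knocked out. X1 and X2 were the 2 lowest of the levels above it, X1 below X2, set by a LIN28B transgene switched on with doxycycline at 10 ng/ml. The higher levels X3 and X4 were not used. All cells grew in DMEM with 10% serum. The sources used here do not say whether X0 cells also received doxycycline, whether X1 and X2 were made in the knockout, or whether each line was 1 clone.

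LIN28B is an RNA-binding protein of early development that is switched back on in many cancers. It holds back the maturation of let-7 microRNAs, which repress messenger RNAs carrying matches to their seed, and it also binds messenger RNAs directly. A messenger RNA that is being translated carries several ribosomes and sediments with polysomes, so the ratio of polysome to total RNA is read as ribosome occupancy. Mature let-7 forms share 1 seed, bases 2 to 8, which is why a list of let-7 targets is followed below. In the 5 forms printed here from RefSeq (GRCh38.p14), 5′ to 3′, the seed is in capitals.
hsa-let-7a-5p: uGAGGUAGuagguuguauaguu
hsa-let-7d-5p: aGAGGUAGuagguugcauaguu
hsa-let-7e-5p: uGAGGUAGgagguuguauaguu
hsa-let-7g-5p: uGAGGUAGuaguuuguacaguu
hsa-let-7i-5p: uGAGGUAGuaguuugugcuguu
The let-7a form printed lies at chromosome 9, 94175962 to 94175983 on the plus strand of that build, in MIRLET7A1. Over 9 let-7 features of the small RNA table, 0 counts of 125904 were found in untransfected knockout cells, which allows up to 3 counts. The same features held 4 counts of 73083 after let-7 was transfected into the knockout, so the table reads little let-7 even where it was added, and the 0 is not taken as absence. The series holds no small RNA library of X1 or X2, so let-7 could not be read at those levels.

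Depth, as reads recovered from the deposited values, was 37.0 to 55.0 M reads (M, mega) in total RNA and 8.73 to 11.9 M in polysome RNA, with X2 the deepest total RNA library and the shallowest polysome library. Of 10 genes typical of HEK293 cells, 6 were listed, and PAX2, NEFM, NES and ENO2 were not. Their summed level in total RNA was 299 to 350 RPKM (reads per kilobase of gene, scaled to the library total). In 6 of 6, occupancy, taken as the log2 of polysome over total RNA, was below X0 at both levels (median step −0.26). The same held for 49.4% of all genes tested, whose median step was −0.10, so these 6 genes are only a description. Of 16 markers of blood, liver, fibroblast, pluripotent, muscle and endothelial cells, 0 were listed. The deposited table held only genes with at least 1 RPKM of total RNA in each of these libraries. There was 1 library per level and fraction, so X1 and X2 together were set against X0, and the lone X0 value is assumed to vary as X1 and X2 vary. The p-values therefore rest on the X1 to X2 spread alone, and part of it may be technical.

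LIN28B was lowest at X0 in both fractions, while X2 stood well above X1 in total RNA only. Its total RNA was 3.60 RPKM at X0, 23.0 at X1 and 33.4 at X2, from 799, 4824 and 10397 reads. Its polysome RNA was 1.85 RPKM at X0, 12.4 at X1 and 12.9 at X2, from 126, 843 and 648 reads. Both fractions rose, by 2.78 ± 0.18 (SE) log2 units in total RNA and by 2.48 in polysome RNA (limma with Benjamini-Hochberg adjustment, adjusted p = 0.00131 and 2.8e-11), and LIN28B RNA was still read in the knockout. Its occupancy stood 0.07 below X0 at X1 and 0.54 below at X2 on the log2 scale, a step of −0.30 ± 0.25 (limma adjusted p = 0.551). Values per gene do not separate transgene RNA from RNA of the knocked-out gene, so this step may compare different transcripts.

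**Figure D1:**
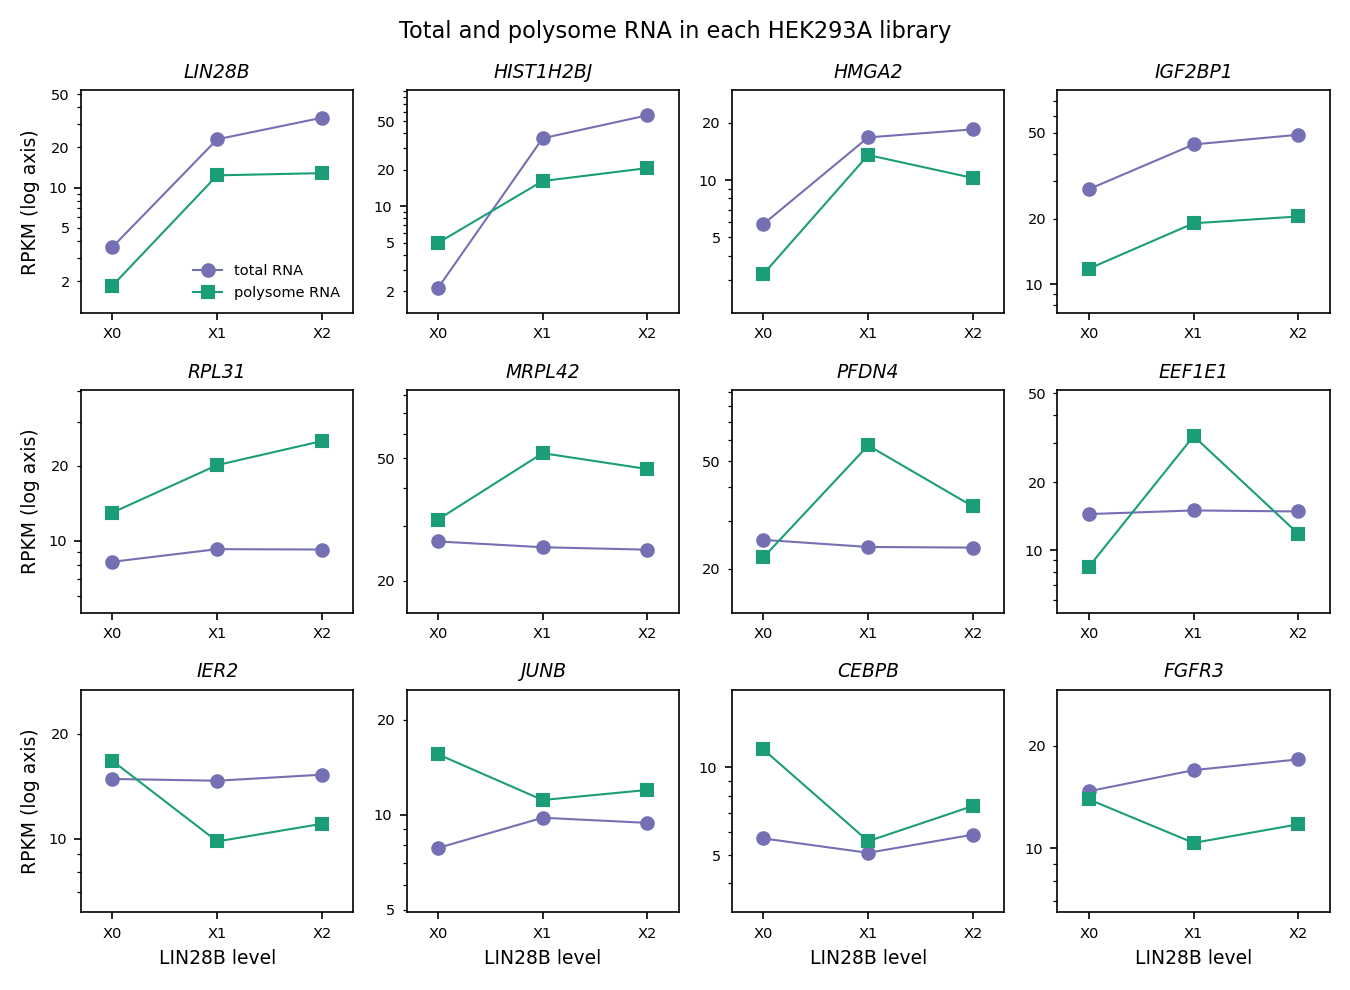
Total RNA (circles) and polysome RNA (squares) of 12 genes in RPKM on a log axis, 1 point per library, against the LIN28B level. LIN28B, HIST1H2BJ, HMGA2 and IGF2BP1 held more RNA at X1 and X2 than at X0 in both fractions, RPL31, MRPL42, PFDN4 and EEF1E1 held more polysome RNA, and IER2, JUNB, CEBPB and FGFR3 held less polysome RNA.

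Few genes changed in occupancy beyond the spread between X1 and X2. The step, the mean of X1 and X2 minus X0 of log2(polysome RPKM + 0.5) minus log2(total RPKM + 0.5), was tested for 11133 genes. By limma, 1 gene rose (0.00898% of genes tested) and 4 fell (0.0359%) at an adjusted p below 0.05, while 1131 genes (10.2%) had an unadjusted p below 0.05, 407 higher (3.66%) and 724 lower (6.5%). By edgeR's quasi-likelihood test on recovered reads, 0 genes passed in either direction, with 1136 at an unadjusted p below 0.05. Since these are bulk libraries, fewer cells translating a gene and fewer ribosomes per cell cannot be told apart.

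At a mean of at least 5 RPKM the called genes came to 1, HIST1H2BJ, a replication-dependent histone H2B gene. Its total RNA was 2.12 RPKM at X0, 36.4 at X1 and 56.3 at X2. Its polysome RNA was 5.00, 16.2 and 20.7 RPKM, from 34, 110 and 104 reads. Both fractions were low at X0 and high at X1 and X2, total RNA by more, so that occupancy fell by 2.35 ± 0.23 (SE) on the log2 scale (limma adjusted p = 0.000227). Its call held under 8 of 9 alternatives and was lost with edgeR, at an adjusted p of 0.466. HIST1H2BJ has near-identical H2B copies, between which the authors' counting may have divided reads, and is uncertain.

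The other 4 called genes lay at a mean under 5 RPKM and are named after their values were seen. The gene ENSG00000272338.1, listed under a clone name, rose by 1.71 ± 0.27, with polysome RNA of 1.13 RPKM at X0, 3.52 at X1 and 4.00 at X2, from 8, 25 and 21 reads. RP5-940J5.9 fell by 1.64 ± 0.27 and CTD-3184A7.4 fell by 1.66 ± 0.26, the latter with 30, 6 and 4 polysome reads. COX5BP6, whose symbol is that of a COX5B pseudogene, had 6 polysome reads at X0, 1 at X1 and 0 at X2, and a fitted step of −2.42 that depends on the pseudocount. Adjusted p by limma was 0.0334 to 0.0426 for these 4 genes. Each call was lost after centring the libraries, after quantile normalization, at a pseudocount of 1, with no filter on low values and with edgeR.

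Among the genes with the largest rises at a mean of at least 5 RPKM, 0 of 10 passed the test, and each stood higher at X1 than at X2. EEF1E1, a scaffold protein of the aminoacyl-tRNA synthetase complex, had total RNA of 14.5, 15.0 and 14.9 RPKM at X0, X1 and X2 and polysome RNA of 8.44, 32.2 and 11.8. Its total RNA was level, and its polysome RNA was high in the X1 library, which gave occupancy differences of 1.82 at X1 and 0.43 at X2. PFDN4, a subunit of the prefoldin chaperone, had polysome RNA of 22.1, 57.1 and 34.0 RPKM, and occupancy differences of 1.44 and 0.71. SRP9, a protein of the signal recognition particle, had polysome RNA of 69.7, 189 and 84.7 RPKM. METTL18, a histidine methyltransferase, and ANKRD49 were the most alike at X1 and X2. Their differences were 1.09 and 0.95 for METTL18 and 1.12 and 0.83 for ANKRD49. The same order held for RP3-417G15.1 (2.47 at X1 and 0.96 at X2), for IER3IP1, a small protein of the endoplasmic reticulum (1.65 and 0.59), for ANKRD49 (1.12 and 0.83), for GLMN, which binds cullin ubiquitin ligases (1.54 and 0.40), and for PARPBP, a PARP1-binding protein (1.25 and 0.57). Adjusted p for these 10 genes was 0.466 (limma).

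The largest negative steps were more alike at X1 and X2 for several genes. DLL3, an inhibitory Notch ligand, had polysome RNA of 11.5, 6.36 and 8.01 RPKM and total RNA of 4.15, 4.87 and 5.01. ISG15, a ubiquitin-like protein of the interferon response, had polysome RNA of 12.7, 9.32 and 7.22 RPKM against total RNA of 2.75, 3.40 and 3.88. In both genes polysome RNA was highest at X0 and total RNA lowest there. Their occupancy steps were −0.88 ± 0.25 for DLL3 and −0.95 ± 0.27 for ISG15 (limma adjusted p = 0.466). C19orf81 stood at −1.41 at X1 and −0.96 at X2, UFSP1, a protease of the UFM1 pathway, at −1.16 and −0.65, and HDGFP1 at −1.46 and −0.56. Among genes with clone names, RP11-613M10.6, RP11-339B21.15 and RP11-583F2.6, had steps of −0.88, −0.88 and −0.89. AL353354.1, with a recovered length of 66 bases and 3 to 10 reads per library, stood at −2.10 at X1 and −0.53 at X2.

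Most of the spread in the step lay in polysome RNA. Between X1 and X2, a comparison without X0, the SD over genes was 0.31 for polysome RNA and 0.08 for total RNA. Occupancy differed from X0 with an SD of 0.39 at X1 and 0.33 at X2, and X2 differed from X1 with an SD of 0.31. At X1, 1.13% of genes lay more than 1 log2 unit from X0, at X2 0.602%, and 0.737% lay as far apart between X1 and X2. The typical standard error from counting reads was 0.10 (median over genes), against 0.25 for the moderated standard error of the step. The median gene stood 0.07 below X0 at X1 and 0.14 below at X2, and its step of −0.10 came to −0.03 after centring each library on its trimmed mean.

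**Figure D2:**
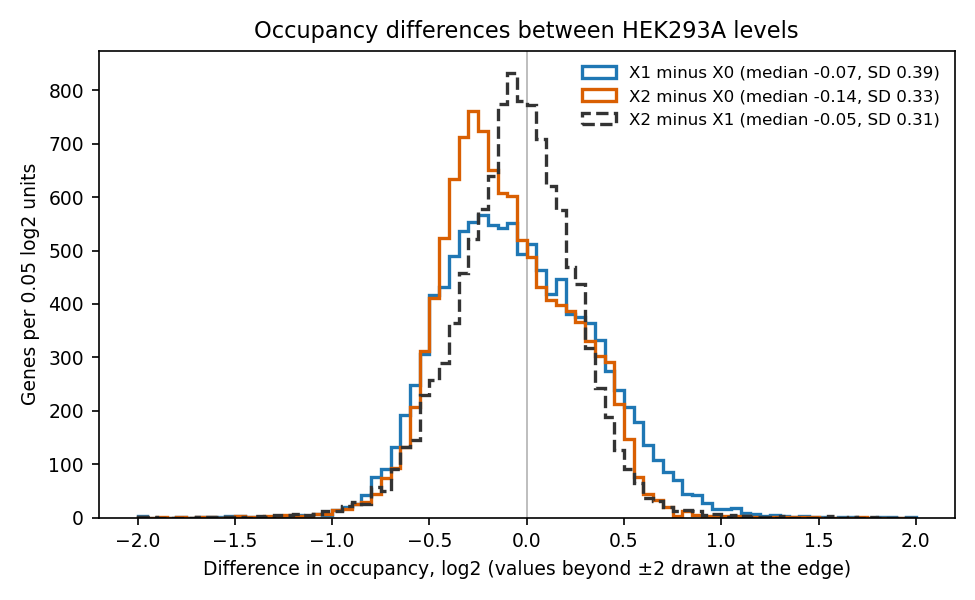
Histogram of the difference in occupancy (log2, horizontal axis) over 11133 genes in steps of 0.05, for X1 minus X0, X2 minus X0 and X2 minus X1. The widths are alike, with SDs of 0.39, 0.33 and 0.31, and the medians are −0.07, −0.14 and −0.05.

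Occupancy at X1 and X2 both lay above X0 for 3158 genes (28.4%) and both below for 5498 (49.4%). These counts share the X0 library and serve as the background for the gene lists below, each of which is a set of genes named by function. Among all lists, 0 members passed the occupancy test other than HIST1H2BJ. The share of list members on either side of X0 is therefore a description.

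Protein synthesis genes did not lie together. Of 75 genes for cytosolic ribosomal proteins, the structural proteins of the ribosome, 50 stood above X0 at both levels and 12 below, and the median step was 0.27, with a median difference of 0.12 at X1 and 0.43 at X2. RPL31 had total RNA of 8.22, 9.24 and 9.21 RPKM and polysome RNA of 13.0, 20.1 and 25.1. RPL34 had polysome RNA of 147, 181 and 224 RPKM. Both stood highest at X2, whereas RPL39 stood highest at X1, with polysome RNA of 29.5, 77.6 and 34.9 RPKM. Ribosomal protein genes have many pseudogene copies, so single values are uncertain. Centring and quantile normalization left the list's median at 0.35 and 0.20. In total RNA 2 of the 75 members rose and 3 fell, against 7.46% and 3.85% of all genes.

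Translation factors and synthetases lay nearer the median gene. For 47 translation factors the median step was −0.06, with 17 above X0 at both levels and 20 below. EIF3E, a subunit of initiation factor 3, had polysome RNA of 54.2, 95.3 and 73.0 RPKM against total RNA of 53.9, 51.3 and 50.8, a step of 0.70 ± 0.22. EIF3M, of the same complex, had a step of 0.45 and TPT1, an abundant growth-related protein, one of 0.54, and neither passed (limma adjusted p = 0.466). For 23 aminoacyl-tRNA synthetase genes the count was 10 above and 10 below. DARS and RARS, which charge aspartate and arginine transfer RNA, had steps of 0.54 and 0.50. Nucleolar genes for ribosome assembly had a median of 0.01 over 50 genes, from −0.55 for RRS1 to 0.63 for NOL11 among the members named, with 0.57 for WDR75.

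Genes of the secretory entry route and of mitosis stood above the median gene. Of 44 genes for endoplasmic reticulum chaperones, the translocon and the signal recognition particle, 26 lay above X0 at both levels and 14 below, with a median step of 0.21. SRP19, a protein of the signal recognition particle, had polysome RNA of 5.86, 13.2 and 8.96 RPKM while its total RNA was 6.76, 6.86 and 6.87. TRAM1, a translocon-associated membrane protein, had occupancy differences of 1.06 at X1 and 0.32 at X2. Both were highest in the X1 polysome library. Of 38 mitotic regulators, 19 lay above X0 at both levels and 11 below, with a median of 0.15. TTK, a spindle checkpoint kinase, and NUF2, a kinetochore protein, had steps of 0.76 and 0.73, and PLK1, a mitotic kinase, had one of −0.53 with polysome RNA of 46.0, 30.02 and 33.4 RPKM. CCNB1, the mitotic cyclin B1, had a step of 0.27 ± 0.23 and CDK4, a kinase of the G1 phase, one of −0.12 ± 0.24.

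Mitochondrial, proteasome and DNA replication genes had median steps between −0.07 and 0.08. Of 74 mitochondrial ribosomal protein genes, 31 lay above X0 and 27 below, with medians of −0.07 at X1 and 0.15 at X2. MRPL42 had polysome RNA of 31.6, 51.9 and 46.1 RPKM against total RNA of 26.8, 25.7 and 25.2, and steps of 0.73 and 0.57 were found for MRPL1 and MRPS10. The nuclear-encoded respiratory chain had 30 of 74 genes above and 26 below. UQCRB of complex III and NDUFA5 of complex I had steps of 0.54 and 0.65, and ATP5D, a subunit of ATP synthase, had one of −0.60. The 32 proteasome genes had a median of 0.01, with 0.61 for PSMA2, 0.54 for PSMA4 and 0.49 for PSMD10. The 48 DNA replication genes had a median of 0.02, with 0.78 for CCNE2, a cyclin of S phase entry, 0.64 for POLE2 and 0.57 for ORC3. Of 13 genes transcribed in mitochondria, which cytosolic ribosomes do not translate, 3 lay above X0 and 2 below; MT-ND3 had a step of 0.35, MT-ND6 one of 0.43 and MT-ND5 one of −0.27.

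**Figure D3:**
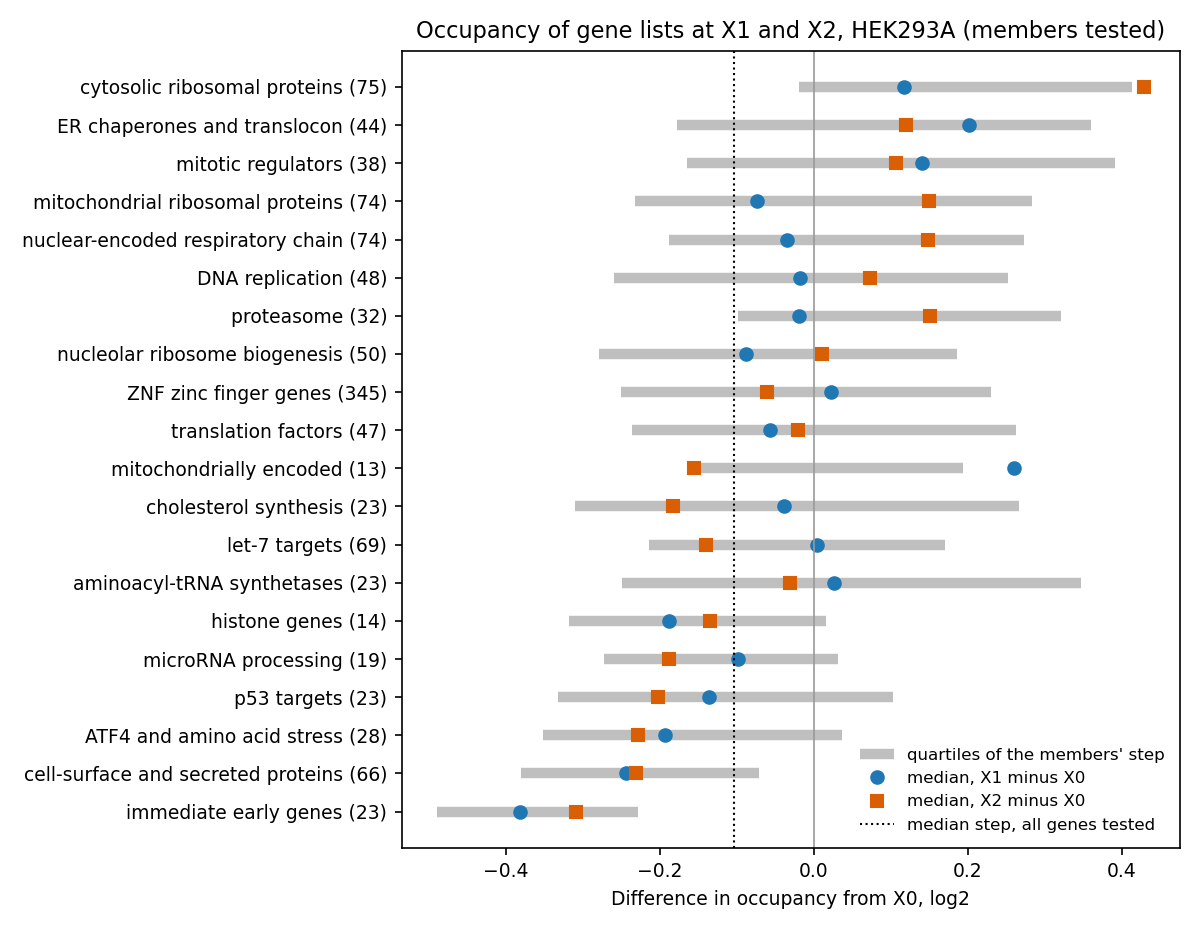
Median difference in occupancy from X0 (log2, horizontal axis) for each gene list at X1 (circles) and X2 (squares), with grey bars for the quartiles of the members' step and a dotted line at the median of all genes tested (−0.10). Cytosolic ribosomal proteins have medians of 0.12 at X1 and 0.43 at X2, and immediate early genes −0.38 and −0.31.

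Immediate early genes, which growth signals switch on within minutes, lay mostly below X0. Of 23 genes, 21 stood below X0 at both levels and 0 above, against 49.4% and 28.4% of all genes, and the median step was −0.33, with a range of −0.69 to −0.08. JUNB, a subunit of the AP-1 transcription factor, had polysome RNA of 15.5, 11.1 and 11.98 RPKM and total RNA of 7.84, 9.78 and 9.42. IER2 had polysome RNA of 16.7, 9.81 and 11.02 RPKM and total RNA of 14.8, 14.7 and 15.3. JUND, another AP-1 subunit, had polysome RNA of 75.4, 42.3 and 49.3 RPKM. In these 3 genes X0 held the most polysome RNA, and steps were −0.69 ± 0.23, −0.67 ± 0.22 and −0.56 ± 0.21 (limma adjusted p = 0.466). In total RNA 9 members of the list rose and 2 fell, against 7.46% of all genes higher and 3.85% lower. After quantile normalization 1 member rose, where 21 of all 11133 genes tested rose. Centring and quantile normalization left the list's occupancy median at −0.26 and −0.27.

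Cell-surface and secreted proteins had a median step of −0.26, with 49 of 66 genes below X0 at both levels and 9 above. FGFR3, a fibroblast growth factor receptor, had total RNA of 14.7, 17.0 and 18.2 RPKM and polysome RNA of 13.9, 10.4 and 11.8. SDC1, a heparan sulfate proteoglycan, had polysome RNA of 8.41, 6.85 and 7.17 RPKM, and LRP3, a receptor of the LDL receptor family, 21.9, 13.3 and 16.9. All 3 were highest at X0 in polysome RNA, with steps of −0.57, −0.55 and −0.54 and SEs of 0.22 to 0.24. The median was −0.19 after centring and −0.18 after quantile normalization.

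Genes of 2 stress responses and of cholesterol synthesis differed in total RNA, where 7.46% of all genes rose and 3.85% fell. Few of those calls were left after quantile normalization, where 21 of all 11133 genes tested rose and 13 fell. Of 28 genes of the ATF4 and amino acid response, 19 lay below X0 at both levels and 5 above, with a median of −0.24. CEBPB, a transcription factor of that response, had polysome RNA of 11.5, 5.58 and 7.37 RPKM while its total RNA was 5.71, 5.09 and 5.88. ASNS, which makes asparagine, stood above X0 in occupancy by 0.44 ± 0.21, with total RNA of 33.9, 24.8 and 22.9 RPKM that fell by 0.50 (limma adjusted p = 0.00557, lost with quantile normalization at 0.0535) and polysome RNA of 54.7, 55.5 and 49.6. TRIB3, a pseudokinase induced by ATF4, had a step of −0.50 ± 0.23. In total RNA 9 members of the list fell and 1 rose, and 1 and 0 after quantile normalization. Of 23 targets of p53, 13 lay below X0 and 3 above, with a median step of −0.16 against −0.10 for all genes, and steps of −0.73 for BBC3, a death-promoting BCL2 family member, −0.48 for FDXR and 0.67 for RRM2B. In total RNA 13 of them rose and 0 fell, and 1 rose after quantile normalization. Of 23 genes for cholesterol synthesis, 11 fell and 1 rose in total RNA, and 0 in either direction after quantile normalization. HMGCS1 of that pathway had total RNA of 44.3, 36.1 and 34.2 RPKM, which fell by 0.33 (limma adjusted p = 0.0108, lost with quantile normalization and without a variance trend, at up to 0.0598), and polysome RNA of 34.5, 47.4 and 39.2. MSMO1 and SC5D, later enzymes of the pathway, had occupancy steps of 0.60 and 0.72, and the list's median step was −0.08.

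Targets of let-7 rose in total RNA with little difference in occupancy. Of 69 targets, 39 rose and 0 fell in total RNA, against 7.46% and 3.85% of all genes. With quantile normalization 5 targets rose, where 21 of all 11133 genes tested rose. The list had a median of 0.21 in total RNA, 0.21 in polysome RNA and −0.08 in occupancy. In occupancy 19 targets (27.5%) lay above X0 at both levels and 31 (44.9%) below, against 28.4% and 49.4% of all genes. The list was drawn from published targets with earlier results of these libraries known and is not independent evidence of direction. HMGA2, a chromatin protein and classical let-7 target, had total RNA of 5.87, 16.7 and 18.5 RPKM and polysome RNA of 3.21, 13.5 and 10.3. It was low at X0 and high at X1 and X2 in both fractions, rising by 1.505 ± 0.06 in total RNA and 1.73 in polysome RNA (limma adjusted p = 0.000421 and 4.4e-06), with an occupancy step of 0.22 ± 0.26 (adjusted p = 0.665). The occupancy of HMGA2 differed from X0 by 0.48 at X1 and by −0.04 at X2. The polysome call was lost after centring and after quantile normalization (limma adjusted p of 0.326 at most).

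IGF2BP1, an RNA-binding protein of fetal tissue and let-7 target, had total RNA of 27.4, 44.1 and 48.9 RPKM and polysome RNA of 11.8, 19.1 and 20.5. Its total RNA rose by 0.75 (limma adjusted p = 0.00338), and its occupancy step was −0.03 ± 0.21, or 0.05 after centring. DICER1, the enzyme that cuts microRNA precursors, had total RNA of 8.56, 12.7 and 13.3 RPKM, a rise of 0.57 (adjusted p = 0.00365), and an occupancy step of 0.09 ± 0.24. The total RNA calls of IGF2BP1 and DICER1 were lost only with quantile normalization (limma adjusted p = 0.0513 for both). Without a variance trend 25 of the 69 targets passed, where 199 of all 11133 genes tested rose and 122 fell. IGF2BP2 and IGF2BP3, relatives of IGF2BP1, had steps of −0.24 and 0.27. Other named targets were SMARCAD1, a chromatin remodeller, DNA2, a nuclease and helicase, and YOD1, a deubiquitinase, with occupancy steps of 0.82, 0.55 and 0.68, of which 0 passed. Genes for microRNA processing had a median of −0.14 over 19, with −0.36 for TARBP2, the partner of DICER1, −0.38 for KHSRP and 0.29 for DDX5.

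Histone and zinc finger genes completed the lists. Of 14 histone genes, 6 lay below X0 at both levels and 3 above. H1FX, a linker histone, had polysome RNA of 189, 88.2 and 119 RPKM and H2AFX, the variant marked at DNA breaks, 160, 96.4 and 113. Both were highest at X0, with steps of −0.64 and −0.55. The 345 ZNF genes had a median of −0.02, with 120 above and 142 below; ZNF579, ZNF414 and ZNF428 had steps of −0.87, −0.64 and −0.61.

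In total RNA, 831 genes rose (7.46%) and 429 fell (3.85%), and in polysome RNA 19 rose (0.171%) and 17 fell (0.153%). EEF1E1, IER3IP1, PFDN4, CENPQ, GLMN, SC5D and YOD1 were among the polysome rises, by 0.96 to 1.17, and each of these calls was lost after centring, where 1 gene rose and 0 fell. Quantile normalization left 21 rises and 13 falls in total RNA. The total RNA calls of LIN28B, HMGA2 and HIST1H2BJ passed under each of 9 alternatives.

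Base composition near the start of the gene was ordered with the step. Among 8521 protein-coding genes with a RefSeq promoter (84.2% of those tested; 300 bases, GRCh38.p14), split into 5 bins, the median step was 0.01 in the bin of genes with the lowest GC, then −0.02, −0.09, −0.14 and −0.23 in the bin with the highest. Both levels lay below X0 for 38.3% of genes in the lowest bin and 64.4% in the highest. From the lowest to the highest bin the median went from 0.04 to −0.21 at X1 and from −0.03 to −0.23 at X2, which share X0, whereas X2 minus X1 stayed between −0.06 and −0.03 with no order. Cell-surface and secreted protein genes had a median promoter GC of 74.8% and cytosolic ribosomal protein genes one of 59.0%, against 66.0% over all genes with a promoter. Other lists did not keep to this order. ATF4 and endoplasmic reticulum genes had 66.3% and 65.7%, with median steps of −0.24 and 0.21. Immediate early genes, with the lowest median step of −0.33, had 69.2%, and histone genes had 52.3% with a median step of −0.09. The part of base composition in these lists' values was not tested. By gene length the median step went from −0.15 in the bin of shortest genes to −0.05 in that of the longest, with opposite orders in X1 minus X0 and X2 minus X1. By expression it stayed between −0.12 and −0.09.

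**Figure D4:**
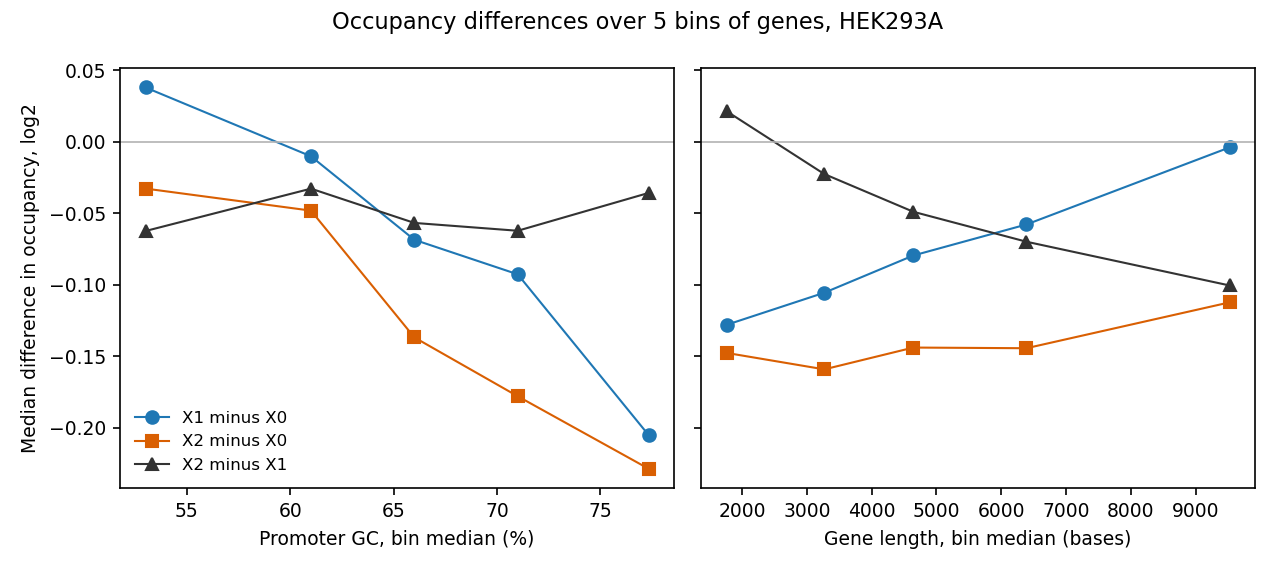
Median difference in occupancy (log2, vertical axis) in 5 bins of genes by promoter GC (left) and gene length (right), for X1 minus X0, X2 minus X0 and X2 minus X1. X1 and X2 both fall with GC, to −0.21 and −0.23, while X2 minus X1 stays near −0.05.

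NIH3T3, a mouse embryonic fibroblast line with 6 libraries whose titles give the same 3 level names, was compared over 7223 shared gene symbols. LIN28B itself was not read in NIH3T3 here, so whether its levels match those of HEK293A was not tested. Whether LIN28B was knocked out at the lowest NIH3T3 level was not established here either. The difference in step between the lines passed for 0 genes in either direction (limma, 95 at an unadjusted p below 0.05). It passed for 1 gene higher and 229 lower in HEK293A without NIH3T3 X1, and for 13 higher and 4 lower without NIH3T3 X2, so the count rests on those levels. In NIH3T3 alone 23 genes had a called step (0.318%). HSPA5, the main chaperone of the endoplasmic reticulum, had a step of −0.22 in HEK293A and 1.34 in NIH3T3, where polysome RNA was 23.9, 56.6 and 68.1 RPKM at level total RNA. NOL7, a nucleolar protein, stood at −0.23 and 1.29, SCO2, a copper chaperone of cytochrome oxidase, at −0.37 and 0.86, and EMD, emerin of the nuclear envelope, at −0.46 and 0.49. POLR2F, a subunit of RNA polymerases, stood at −0.12 and −1.13. These 5 had the smallest p of the difference among genes at a mean of at least 5 RPKM in both lines. Each had an adjusted p of 0.9996 for the difference (limma). In NIH3T3 alone the steps of HSPA5 and POLR2F passed (limma adjusted p = 0.0022 and 0.0024).

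The same lists were set side by side in the lines, each against its own X0. Over all shared genes the median step was −0.14 in HEK293A and −0.01 in NIH3T3, with 26.3% and 31.8% of genes above X0 at both levels and 53.5% and 37.8% below. Cytosolic ribosomal proteins had a median step of 0.27 in HEK293A and 0.23 in NIH3T3, with 49 and 55 of 74 genes above X0 at both levels. In HEK293A X2 was the higher of the 2 levels for this list, in NIH3T3 X1. Immediate early genes had medians of −0.33 and −0.26, with 21 and 14 of 23 below X0. Cell-surface and secreted proteins stood at −0.27 and −0.13, below the median of all shared genes in both lines. Translation factors stood at −0.07 and 0.29, above that median in both lines. Targets of let-7 in NIH3T3 had a median of −0.08 at X1 and 0.24 at X2. Mitochondrially transcribed genes in NIH3T3 had medians of −0.67 at X1 and 1.38 at X2, so that their step of 0.41 lies between opposite values. The difference between lines was tested gene by gene only, and passed for 0 members of any list.

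**Figure D5:**
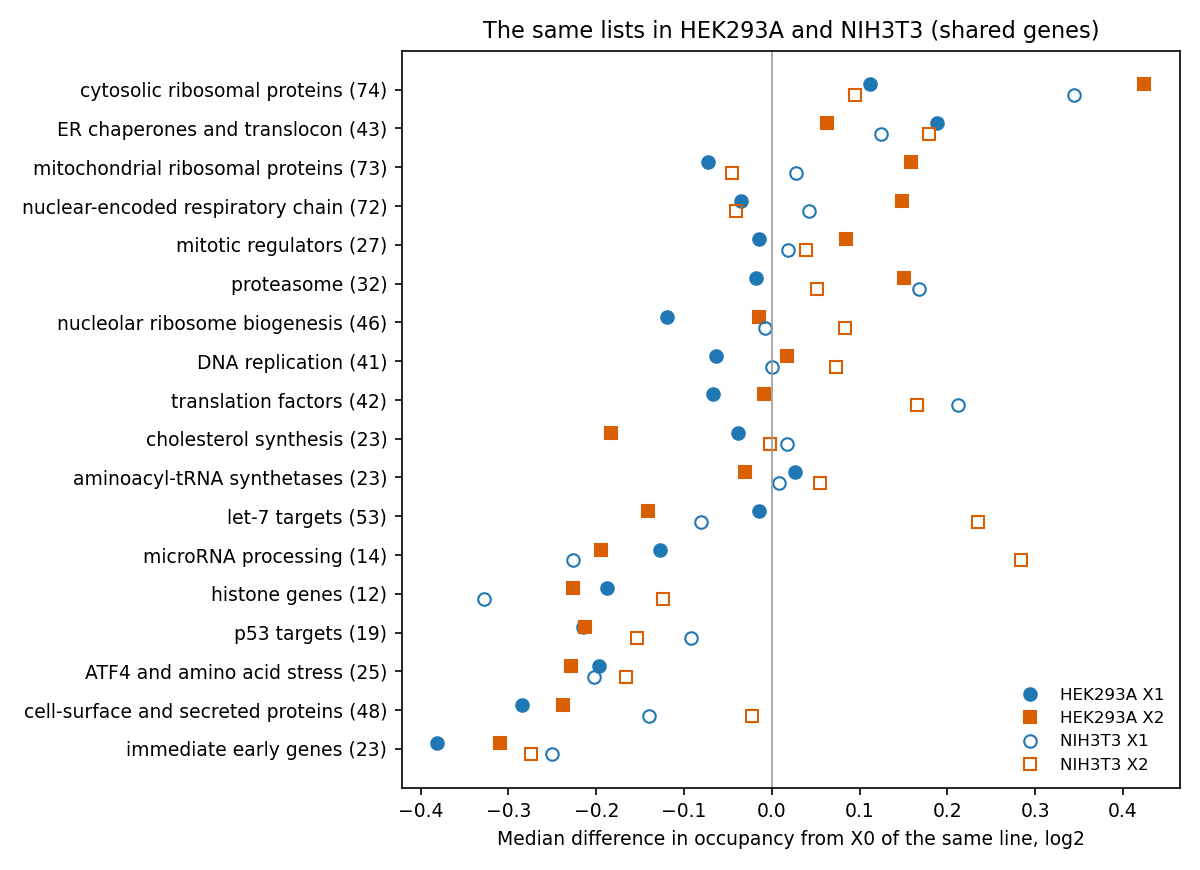
Median difference in occupancy from X0 of the same line (log2, horizontal axis) for gene lists over shared genes, in HEK293A (filled) and NIH3T3 (open), at X1 (circles) and X2 (squares). Cytosolic ribosomal proteins lie right of 0 in all 4 and immediate early genes left of 0 in all 4. Translation factors lie left of 0 in HEK293A and right of 0 in NIH3T3. The values are not centred, and all shared genes have medians of −0.11 and −0.17 in HEK293A and −0.06 and 0.03 in NIH3T3, at X1 and X2. Translation factors lie above these medians in both lines.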

How the data were processed

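RPKM values were deposited by the authors for polysome and total RNA, and raw counts for small RNA, which were used only for let-7. The submitters' processing notes name STAR, cutadapt, hg19 and mm10. The sources used here do not name the counting tool, strand setting or annotation, nor do they say whether the design's 2 replicates were pooled into the 1 column deposited per level and fraction. Whole reads were recovered from the RPKM steps for 99.9% of 11342 genes (within 0.02 of a whole number).

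Occupancy was log2(polysome RPKM + 0.5) minus log2(total RPKM + 0.5), over genes averaging 1 RPKM or more in the 6 libraries. limma 3.58.1 (R 4.3.3) was fitted to all genes with a variance trend on mean log2 RPKM, 1 residual degree of freedom per gene before moderation, Benjamini-Hochberg adjustment and a two-sided threshold of 0.05. A fold on this scale understates the change of low genes. edgeR 4.0.16 on recovered reads was an alternative. The difference between lines was a product term. The limma fit of the occupancy step was tested on simulated data. There X0 varied as X1 and X2 did, so that assumption itself was not tested.

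Named genes were 8 fixed genes and the 10 largest steps each way at a mean of at least 5 RPKM with X1 and X2 on 1 side of X0. To these were added the 3 members of smallest p in each list and the 5 genes of smallest p between lines. Both of these were taken at a mean of at least 5 RPKM, in both lines for the latter. Members and lists were chosen with earlier results of these data known. The promoter GC bins and the lines fitted without an NIH3T3 level were added after seeing the data. The polysome and total RNA libraries of X0 cells transfected with let-7a were not used.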

Additional observations from a re-analysis of the deposited data

How the results depend on the processing

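Alternatives were another pseudocount, filter, scaling or variance model, edgeR on recovered reads, and leaving out 1 level. Genes higher and lower in occupancy (1 and 4) came to 1 and 2 at a pseudocount of 0.1, to 0 and 1 at a pseudocount of 1, with no filter, at a mean of 5 RPKM or more, after centring and after quantile normalization, and to 0 and 0 with edgeR (1136 at an unadjusted p below 0.05). HIST1H2BJ passed in 8 of 9 alternatives, all but edgeR. The median step of −0.10 came to −0.0284 after centring, −0.0266 after quantile normalization and −0.0114 with edgeR, and without replicate X1 or X2 ranged from −0.14 to −0.07. Polysome calls (19 higher, 17 lower) came to 10 higher at a pseudocount of 0.1, to 5 and 6 at a mean of 5 RPKM, to 1 and 0 after centring or quantile normalization, to 6 higher without a variance trend, to 10 higher with robust moderation, and to 95 and 10 with edgeR. Total RNA calls (831 and 429) came to 21 and 13 after quantile normalization, to 199 and 122 without a variance trend, and to 1072 lower with edgeR. Genes that differed between lines (0) came to 1 higher in HEK293A after centring or quantile normalization. Without NIH3T3 X1 or X2, chosen after seeing the data, they ranged from 1 to 13 higher and from 4 to 229 lower. Leaving out a HEK293A level gave 0. Of the named genes' occupancy steps, IGF2BP1 reversed where X1 and X2 were both kept. It went from −0.03 to 0.0499 after centring, 0.0492 after quantile normalization and 0.0960 with edgeR. Without X1, HMGA2 and POLR2F also changed sign, from 0.22 to −0.04 and from −0.12 to 0.04. The cause of these differences was not tested. No paired analysis was possible because each level had 1 library per fraction and so no replicate numbers to pair. Counting limits genes with few polysome reads, and the single X0 pair limits every step.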
